A study of Mus with 12 samples.

Results

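The matrix metalloproteinase (Mmp), Adam, Adamts and Timp genes were examined in RNA-seq of whole uterus from 12 pregnant ICR mice, an outbred strain, at 8 weeks of age, with 3 mice on each of 4 days of pregnancy. The study set E0.5 against E4.5 (the implantation stage) and E18.5 against E15.5 (the labor stage), stages that it chose by progesterone (P4) levels. In mice serum P4 is known to be low just after mating, to rise by the time of implantation and to fall before birth, so E0.5 and E18.5 are called the low P4 days here, and P4 was not measured in these data. A member was a row of the deposited gene table that carried a Mmp, Adam, Adamts or Timp gene symbol and at least 1 Ensembl transcript. By this rule there were 81 members among 87235 rows in the table of the implantation stage (23 Mmp, 34 Adam, 20 Adamts and 4 Timp) and 67 members among 40787 rows in the table of the labor stage (20, 24, 19 and 4), which together held 80 gene symbols, 67 of them in both tables.

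Mmp genes encode secreted or membrane-bound zinc proteases that cut collagens, proteoglycans and other proteins of the extracellular matrix. Adam genes encode membrane proteases that release growth factors and receptors from the cell surface, although a number of them act only in sperm or are catalytically inactive. Adamts genes encode secreted relatives that cleave proteoglycans or trim procollagens, and the Timp proteins are the tissue inhibitors of these proteases. The uterus is known for its rapid remodelling of matrix when the embryo implants and around labor. Most of these proteases are made as inactive precursors, so a transcript level is not an activity.

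The study designed a primer pair against a transcript that it called lncRNA-MMP11, and that transcript is counted inside the Mmp11 row of both tables together with the protein-coding transcripts of the gene. The primers are shown because they are the only sequences that tie a member to the study's own assay. Capitals are not used, since no part of either primer was singled out.
Forward primer: cagtcgggctttctcacaca
Reverse primer: ccggacttgctcccttacaa
Each primer has 20 bases and is written 5′ to 3′. The Mmp11 row spans chr10:75923222-75932475 (GRCm38, minus strand), and its FPKM (fragments scaled to transcript length and library size) covers the lncRNA and the mRNA alike.

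Total counts ran from 58020989 to 70906881 per library at the implantation stage, whereas the labor table holds FPKM only and gives no counts. The paper gives an approximate amount of sequence per uterus sample in its text. All 6 uterine markers were detected on every day. The libraries of a group were not equally alike. The library of E4.5 replicate 3 had Spearman correlations of 0.711 to 0.725 with the others of its day, against 0.885 to 0.910 for the other same-day pairs of that stage, and a summed level of 10 ovarian markers of 888 FPKM, against 11.2 and 14.2 in the other E4.5 libraries. Its uterine markers summed to 17.7 FPKM, against 76.6 and 122 FPKM, and its smooth muscle markers to 206 FPKM, against 1214 and 798 FPKM. E15.5 replicate 1 had Spearman correlations of 0.902 and 0.872 with the others of its day, against 0.946 to 0.956 for the other same-day pairs of that stage. E15.5 replicates 2 and 3 had correlations of 0.903 to 0.944 with the E18.5 libraries. In E15.5 replicate 1 the decidual prolactin Prl8a2 stood at 1342 FPKM, against 72.1 and 86.0 FPKM in the others of that day. The rest of the decidual list was lowest there, at 21.4 FPKM against 29.5 and 25.0 FPKM. Markers of the yolk sac, a tissue of the conceptus, summed to 195 to 626 FPKM at E18.5 and 11.1 to 881 FPKM at E15.5, and their part in the labor results was not tested.

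At the implantation stage, 56 of the 81 members passed the filter of 0.1 FPKM on average and were tested. A further 15 were listed at 0 in all 6 libraries, namely 12 Adam genes together with Mmp1a, Mmp1b and Mmp20, and 10 had reads but fell below the filter. Of the 56 tested, 15 were DE by the study's criterion (a change of 1 or more on the log2 scale in either direction and an unadjusted p under 0.05), 8 of them higher and 7 lower at E0.5 than at E4.5. The same criterion was met by 12.2% of all tested rows (6.37% higher and 5.82% lower). The other 41 tested members did not meet it. With Benjamini-Hochberg adjustment over all rows, 5 members passed 0.05 in edgeR's quasi-likelihood test, against 1.22% of all rows (0.763% higher and 0.459% lower). These were Mmp11, Mmp14, Adam28 and Timp2, higher at E0.5, and a plus-strand row within the Adamts9 locus, lower at E0.5. In 14 of the 56 every E0.5 library lay above every E4.5 library, against 12.8% of all rows, and in 5 below, against 12.5%. The median log2 fold change was 0.15 over the members tested and -0.0072 over all rows.

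**Figure D1:**
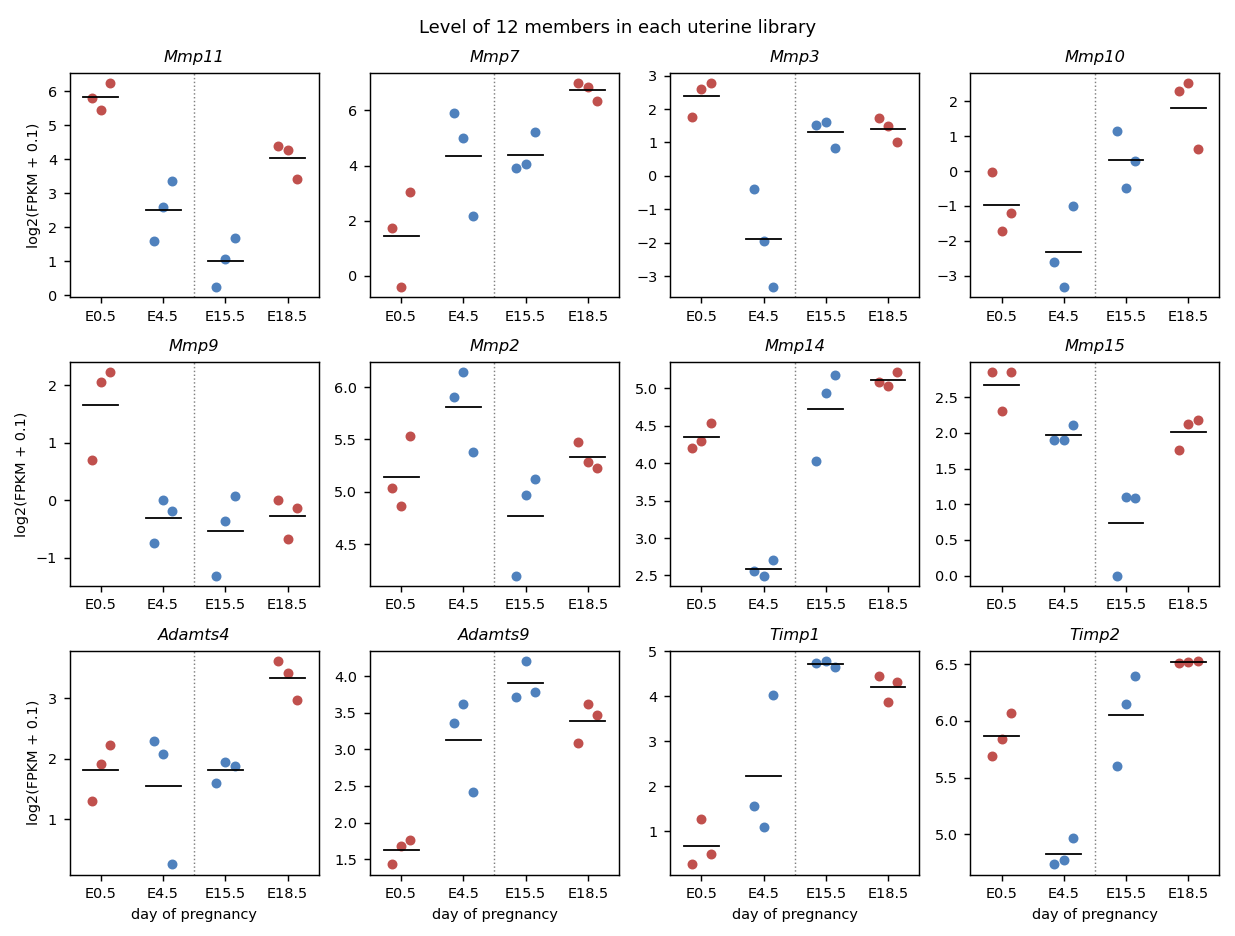
Level of 12 members, as log2(FPKM + 0.1), in each of the 12 libraries. Points are single mice, the black line is the mean of 3 on that scale, red marks the low P4 day of each stage (E0.5 and E18.5) and blue the other day, and the dotted line separates the stages, whose tables were normalized separately. Mmp11 was high on both red days, while Mmp7 was low at E0.5 and high at E18.5.

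Among the stromelysins, Mmp11 (stromelysin-3, which cleaves serpins more readily than matrix) stood at 56.1, 43.4 and 75.1 FPKM at E0.5. At E4.5 it was at 2.94, 5.91 and 10.2 FPKM. The groups did not overlap, and the log2 fold change was 3.23 (SE 0.46, adjusted p = 0.0345, edgeR). Its rank among the members differed by day. On average it held 58.2 ± 15.9 FPKM (SD, n = 3) at E0.5, level with Timp2 at 58.5 ± 7.76 FPKM (SD, n = 3), and 6.33 ± 3.63 FPKM (SD, n = 3) at E4.5. Mmp3 (stromelysin-1, which degrades proteoglycans and activates other Mmp precursors) was at 3.29, 5.99 and 6.71 FPKM at E0.5 and at 0.661, 0.156 and 0 FPKM at E4.5, where the counts were 102, 24 and 0. The log2 fold change of 4.22 (SE 1.35) was the highest of the members tested, yet its adjusted p was 0.187. Mmp10 (stromelysin-2) had 0.475 ± 0.364 FPKM (SD, n = 3) at E0.5 against 0.155 ± 0.217 FPKM (SD, n = 3), and did not meet the criterion (log2 fold change 1.62), but without E4.5 replicate 3 its log2 fold change was 3.71 and it met it (adjusted p = 0.190).

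Both gelatinases were expressed, and their values went in opposite directions. Mmp9, a protease of basement membrane collagen carried by leukocytes among other cells, was at 1.53, 4.05 and 4.58 FPKM at E0.5 and at 0.497, 0.906 and 0.778 FPKM at E4.5 (log2 fold change 2.24, SE 0.46, adjusted p = 0.0759). All E0.5 values lay above all E4.5 values. The summed neutrophil markers without Ltf were 0.907 to 1.96 FPKM at E0.5 and 0.882 to 1.88 FPKM at E4.5, with S100a9 and Retnlg at 0 on both days. Within that list Ly6g was at 0.599, 0.715 and 1.92 FPKM at E0.5 and at 0.0218, 0.0667 and 0.281 FPKM at E4.5 and met the criterion, while Camp and S100a8 had negative log2 fold changes, and neither met it. The list sum with Ltf (lactoferrin, which the uterine epithelium also makes in response to estrogen) was 349 to 538 FPKM at E0.5 and 3.87 to 21.1 FPKM at E4.5. Summed macrophage markers were 89.4 to 104 FPKM at E0.5 and 48.6 to 69.0 FPKM at E4.5, and their part in the Mmp9 difference was not tested. In whole tissue, fewer cells of a type and less RNA per cell cannot be told apart. Mmp2, the constitutive gelatinase of stromal cells, had 35.9 ± 9.06 FPKM at E0.5 (SD, n = 3) against 57.3 ± 14.6 FPKM (SD, n = 3) at E4.5. Its log2 fold change of -0.67 (SE 0.28, adjusted p = 0.287) was under the criterion.

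Mmp14, the membrane-type protease that activates the Mmp2 precursor with the help of Timp2, had the lowest p of the members. It was at 18.3, 19.6 and 23.2 FPKM at E0.5 and at 5.81, 5.55 and 6.43 FPKM at E4.5. The values within each day spread little, and the log2 fold change was 1.79 (SE 0.17, adjusted p = 0.0161). Timp2 itself was at 51.5, 57.3 and 66.8 FPKM at E0.5 and at 26.5, 27.3 and 31.2 FPKM at E4.5 (log2 fold change 1.06, SE 0.17, adjusted p = 0.0448). Mmp14 and Timp2 were thus DE in the same direction at this stage, while Mmp2, their partner in that reaction, was not DE. Of the other membrane-type members, Mmp15 was also higher in every E0.5 library, at 4.85 to 7.10 FPKM against 3.62 to 4.22 FPKM, with a log2 fold change of 0.74 that missed the criterion.

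Mmp7 (matrilysin, a small protease of glandular epithelium) was the member with the most negative log2 fold change. It was at 3.18, 0.655 and 8.10 FPKM at E0.5 and at 59.9, 32.2 and 4.36 FPKM at E4.5. The library of E4.5 replicate 3 lay inside the range of E0.5, so the groups overlapped. The log2 fold change was -3.04 (SE 1.15, adjusted p = 0.253), and without that library it was -3.55 (adjusted p = 0.0657). Over the 6 fits that left out a library it ran from -4.10 to -2.15, and the criterion was met in only 2. Summed epithelial markers were 285 to 335 FPKM at E0.5 and 74.1 to 155.1 FPKM at E4.5, the opposite order to Mmp7, and the share of epithelium in the difference was not tested.

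The inhibitors did not move together. Timp1, the inducible inhibitor, was at 1.10, 2.31 and 1.32 FPKM at E0.5 and at 2.83, 2.04 and 16.2 FPKM at E4.5 (log2 fold change -2.10, SE 0.82, adjusted p = 0.261). The value of 16.2 FPKM came from E4.5 replicate 3, the library with 888 FPKM of ovarian markers, and without it the log2 fold change was -0.65 and the criterion was not met. Timp3, the inhibitor bound to matrix, was at 9.60, 18.4 and 10.0 FPKM at E0.5 and at 15.3, 10.6 and 14.6 FPKM at E4.5 (log2 fold change -0.080, SE 0.31). Timp4 was at 1.47, 0.216 and 0.220 FPKM at E0.5 and at 0.894, 0.686 and 3.29 FPKM at E4.5 (log2 fold change -1.33, SE 0.93), and its log2 fold change was -0.35 without E4.5 replicate 3. Over the 6 fits that left out a library it ran from -2.85 to -0.35 and met the criterion only without E0.5 replicate 1. For neither Timp3 nor Timp4 did the groups separate. Timp1, Timp3 and Timp4 lie within the synapsin genes Syn1, Syn3 and Syn2 on the opposite strand, and the counting is not stated to have used strand. Timp2 shares its locus with Cep295nl on the same strand.

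The sum over the Mmp members was less different between the days than its makeup. It was 134 to 200 FPKM at E0.5 and 87.5 to 154 FPKM at E4.5. Mmp11 accounted for 32.4% to 38.1% of it at E0.5 and for 1.9% to 11.6% at E4.5, while Mmp7 accounted for 0.488% to 4.05% and 4.98% to 38.8%. The Timp sum divided by the Mmp sum was 0.392 to 0.583 at E0.5 and 0.290 to 0.746 at E4.5. These ranges overlapped, and the value of 0.746 belonged to E4.5 replicate 3.

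**Figure D2:**
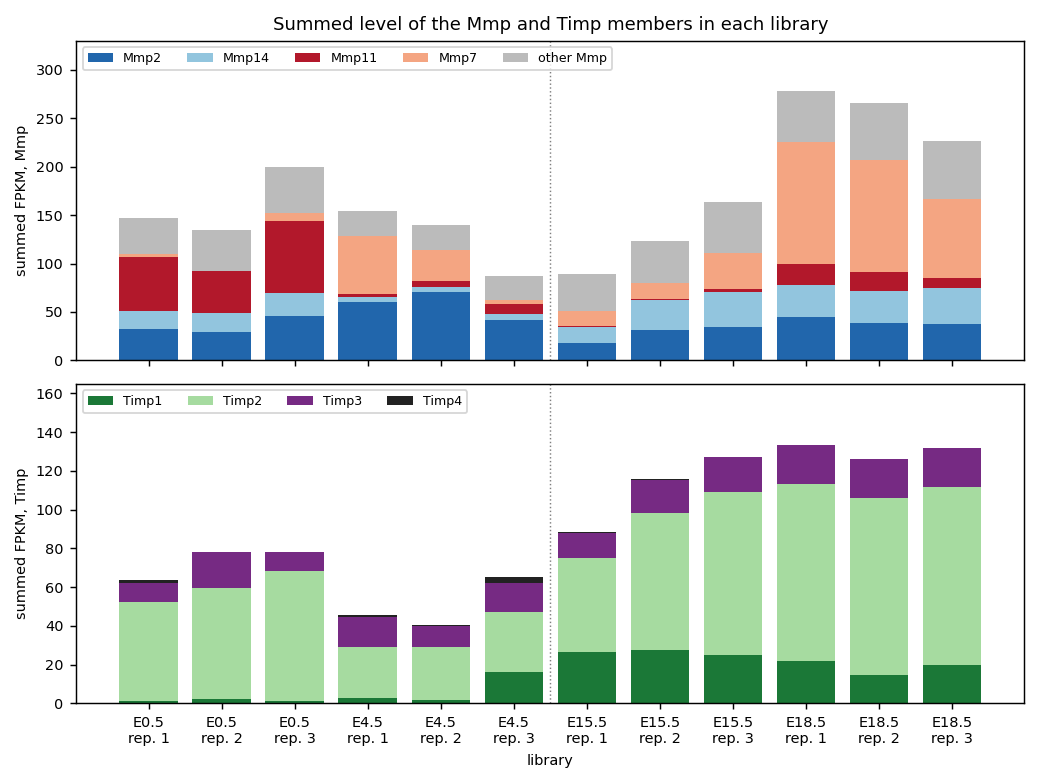
Summed FPKM of the Mmp members (top) and the Timp members (bottom) in each library, with the leading genes as coloured segments. Mmp11 filled much of the Mmp bar at E0.5 and Mmp7 at E18.5, and Timp2 was the tallest Timp segment in each of the 12 libraries.

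Of the 9 sheddases, the Adam proteases known to release surface proteins, 1 was DE at the implantation stage, against 12.2% of all rows. Adam28, a sheddase first known from lymphocytes, was at 1.58, 1.07 and 1.45 FPKM at E0.5 and at 0.310, 0.280 and 0.282 FPKM at E4.5. The groups did not overlap (log2 fold change 2.23, SE 0.23, adjusted p = 0.0192), although the gene was under 1 FPKM on average over the stage. The Adam genes with the highest levels were not DE. Adam10, which cleaves Notch receptors and cadherins, had 18.1 ± 2.51 FPKM at E0.5 (SD, n = 3) against 15.9 ± 0.668 FPKM (SD, n = 3) at E4.5. Adam9 had 12.2 ± 3.91 FPKM (SD, n = 3) and 10.4 ± 0.147 FPKM (SD, n = 3), and Adam15 had 7.50 ± 0.589 FPKM (SD, n = 3) and 8.15 ± 1.94 FPKM (SD, n = 3). Adam1b, a testis gene known for its part in sperm, met the criterion at a mean under 1 FPKM with a log2 fold change of -1.73.

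The Adamts genes divided. Adamts6 was at 6.72, 5.77 and 7.61 FPKM at E0.5 and at 1.33, 2.45 and 2.91 FPKM at E4.5 (log2 fold change 1.61, SE 0.28, adjusted p = 0.0541). Adamts5, a main aggrecanase, was at 3.70, 3.5 and 6.40 FPKM at E0.5 and at 1.13, 1.49 and 3.08 FPKM at E4.5 (log2 fold change 1.28, SE 0.41, adjusted p = 0.189). Both were higher in every E0.5 library than in any E4.5 library. Adamts9, a versican-cleaving protease, went the other way, at 2.59, 3.11 and 3.30 FPKM at E0.5 and at 10.2, 12.2 and 5.23 FPKM at E4.5 (log2 fold change -1.61, SE 0.34, adjusted p = 0.0772). A row on the opposite strand within it, named A730049H05Rik;Adamts9 and holding a protein-coding and a processed transcript by its type column, was at 0.945, 1.43 and 1.45 FPKM at E0.5 and at 5.92, 6.29 and 3.92 FPKM at E4.5 (log2 fold change -2.07, SE 0.28, adjusted p = 0.0325). Since strand use is not stated, reads of the gene and of this row cannot be told apart, and their shared direction is not 2 separate findings.

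Adamts17 and Adamts19 were the other lower members of the family. Adamts17 was at 0.229, 0.317 and 0.961 FPKM at E0.5 and at 1.42, 3.13 and 0.743 FPKM at E4.5 (log2 fold change -1.79, SE 0.71, adjusted p = 0.271), with an overlap between the groups. With a library left out its log2 fold change ran from -2.67 to -1.13, and 2 of the 6 fits kept the criterion. Adamts19 was at 0.418, 0.539 and 0.723 FPKM at E0.5 and at 1.09, 0.889 and 3.37 FPKM at E4.5 (log2 fold change -1.64, SE 0.53, adjusted p = 0.189). Its log2 fold change was -0.84 without E4.5 replicate 3, under the criterion. By the mean over both days, the Adamts members with the highest levels were Adamts2, a procollagen N-proteinase, Adamts10, a protease of fibrillin microfibrils, and Adamts1, which cleaves versican at ovulation, although at E4.5 Adamts9 was above them with a mean of 9.21 FPKM. Adamts2 had 10.6 ± 1.60 FPKM at E0.5 (SD, n = 3) against 7.17 ± 4.25 FPKM (SD, n = 3) at E4.5. Adamts10 had 8.34 ± 2.50 and 8.30 ± 3.88 FPKM (SD, n = 3), and Adamts1 had 7.73 ± 3.59 and 7.54 ± 2.89 FPKM (SD, n = 3). None of these met the criterion.

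Without E4.5 replicate 3, 16 members met the criterion, 11 higher and 5 lower at E0.5, against 14.4% of all rows. Timp1 and Adamts19 left the list, while Adamts2, Adamts16 and Mmp10 joined it. The number past the adjusted p was then 10, 8 of them higher and 2 lower, against 6.28% of all rows. The 5 of them that did not pass with all 6 libraries were Adamts9 (-1.91, adjusted p = 0.00266), Adamts6 (1.82, adjusted p = 0.0142), Adamts2 (1.16, adjusted p = 0.0197), Adamts5 (1.79, adjusted p = 0.0243) and Mmp3 (3.64, adjusted p = 0.0295). Among the others were Mmp14 (1.82, adjusted p = 0.00367) and Mmp11 (3.72, adjusted p = 0.00441). The log2 fold change of Adamts10 went from 0.030 to 0.44 and stayed under the criterion. When any of the other 5 libraries was left out, no member passed the adjusted p, against 0% to 0.253% of all rows, and 10 to 14 met the criterion, against 10.1% to 12.1%.

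At the labor stage, 56 of the 67 members were tested and 11 fell below the filter. There were 9 DE members by the criterion, 6 higher and 3 lower at E18.5 than at E15.5, against 6.05% of all rows (3.11% higher and 2.93% lower). The other 47 tested members did not meet it. None passed the adjusted p in limma, as against 0.0259% of all rows, and 12 had an unadjusted p under 0.05, against 12.2% of all rows. The days did not overlap for 12 members higher and 7 lower at E18.5, against 10.9% and 8.96% of all rows. The median log2 fold change was 0.045 over the members and 0.020 over all rows. Among the 17 Mmp members tested, 5 were DE and higher at E18.5 and 1 was DE and lower. The Timp members gave no DE gene.

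Mmp7 had the highest level of the protease members at E18.5. It was at 126, 116 and 81.2 FPKM at E18.5 and at 15, 16.5 and 36.7 FPKM at E15.5, without overlap (log2 fold change 2.34, SE 0.36, adjusted p = 0.102, limma). It made up 35.9% to 45.4% of the Mmp sum at E18.5 and 13.4% to 22.4% at E15.5. Mmp11 was at 20.9, 19.2 and 10.5 FPKM at E18.5 and at 1.09, 1.98 and 3.14 FPKM at E15.5 (log2 fold change 3.02, SE 0.41, adjusted p = 0.0797). Both genes met the criterion with each library left out in turn. Summed epithelial markers were 610 to 844 FPKM at E18.5 and 199 to 423 FPKM at E15.5, and the trophoblast and placenta markers 43.5 to 74.7 FPKM and 4.07 to 34.9 FPKM. Of the latter, Tpbpa was at 42.2, 52.7 and 31.9 FPKM at E18.5 and at 6.20, 1.41 and 1.66 FPKM at E15.5. Prl2c2 and Psg21 also had positive log2 fold changes, whereas those of Prl3b1 and Prl3d1 were negative. Prl2c2 was at 22.5 FPKM in E15.5 replicate 1. The part of either set of markers in the Mmp differences was not tested.

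Mmp10 joined the other stromelysin at this stage, at 4.83, 5.63 and 1.47 FPKM at E18.5 and 2.12, 0.613 and 1.11 FPKM at E15.5 (log2 fold change 1.51, SE 0.60, adjusted p = 0.384). Its groups overlapped, and it kept the criterion in only 2 of the 6 fits that left out a library. Mmp3 had 2.61 ± 0.633 FPKM at E18.5 (SD, n = 3), compared with 2.48 ± 0.700 FPKM at E15.5 (SD, n = 3) and was not DE. Mmp15, a membrane-type protease, was at 3.27, 4.25 and 4.43 FPKM at E18.5 and at 0.901, 2.05 and 2.03 FPKM at E15.5 (log2 fold change 1.28, SE 0.33, adjusted p = 0.205). Without E15.5 replicate 1, its lowest library, the log2 fold change was 0.92 and the criterion was no longer met. Mmp28, a protease named epilysin after its site in epithelium, met the criterion at a mean under 1 FPKM (log2 fold change 1.28).

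Adamts4, an aggrecanase like Adamts5, was at 12.2, 10.6 and 7.73 FPKM at E18.5 and at 2.94, 3.74 and 3.60 FPKM at E15.5. The groups were well apart (log2 fold change 1.52, SE 0.20, adjusted p = 0.0788). It was the 1 DE member among the 17 Adamts rows tested, a share near the 6.05% of all rows, and Adamts5 had a log2 fold change of -0.16. Adamts1 and Adamts2 were several times more abundant than Adamts4 but not DE. Adamts1 had 52.5 ± 11 FPKM at E18.5 (SD, n = 3), compared with 50.4 ± 6.5 FPKM at E15.5 (SD, n = 3), and Adamts2 had 32.8 ± 3.31 FPKM (SD, n = 3) and 34.0 ± 5.83 FPKM (SD, n = 3). Adamts9, with 10.5 ± 1.98 FPKM (SD, n = 3) and 15 ± 2.93 FPKM (SD, n = 3), was lower in every E18.5 library than in any E15.5 library, but its log2 fold change of -0.51 was under the criterion.

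The lower members at E18.5 were Adam8, Mmp13 and Adam3. Adam8, a sheddase of myeloid cells, was at 2.42, 2.52 and 7.27 FPKM at E18.5 and at 14.8, 12 and 7.31 FPKM at E15.5 (log2 fold change -1.59, SE 0.46, adjusted p = 0.251). The groups met at 7.27 and 7.31 FPKM. Summed macrophage markers were 369 to 521 FPKM at E18.5 and 369 to 455 FPKM at E15.5. Neutrophil markers without Ltf summed to 1.15 to 4.0 FPKM and 1.5 to 27.1 FPKM, the last in E15.5 replicate 1, which also had the highest Adam8 value. In that library S100a8 alone was at 24.0 FPKM, while S100a9 was at 2.94 FPKM, Mpo at 0.145 FPKM and Retnlg at 0 FPKM. Without that library the log2 fold change of Adam8 was -1.37 and it still met the criterion. Mmp13, the main collagenase of the mouse, had a mean under 1 FPKM, with 0.104 ± 0.0379 FPKM at E18.5 (SD, n = 3), compared with 0.641 ± 0.0447 FPKM at E15.5 (SD, n = 3) (log2 fold change -1.88). The testis gene Adam3 had still lower levels (log2 fold change -1.32).

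The gelatinases, Mmp14 and the ubiquitous sheddases were not DE at the labor stage. Mmp2 had 40.3 ± 3.60 FPKM at E18.5 (SD, n = 3), compared with 28.1 ± 8.69 FPKM at E15.5 (SD, n = 3), and Mmp9 had 0.748 ± 0.195 FPKM (SD, n = 3) and 0.646 ± 0.327 FPKM (SD, n = 3). Mmp14 had 34.5 ± 2.27 FPKM (SD, n = 3) and 27.6 ± 10.2 FPKM (SD, n = 3), with 16.3 FPKM in E15.5 replicate 1. Without that library the log2 fold change of Mmp14 went from 0.39 to 0.054, that of Mmp2 from 0.57 to 0.28 and that of Timp2 from 0.47 to 0.25. Adam9 had 31.8 ± 3.42 FPKM (SD, n = 3) and 27.1 ± 5.38 FPKM (SD, n = 3), and Adam10 had 21.5 ± 2.90 FPKM (SD, n = 3) and 20.5 ± 0.565 FPKM (SD, n = 3). Adam17, which releases tumor necrosis factor and ligands of the epidermal growth factor receptor, had 7.94 ± 0.247 FPKM (SD, n = 3) and 7.73 ± 0.761 FPKM (SD, n = 3), a log2 fold change of 0.042 (SE 0.12). Adam28 had 1.07 ± 0.318 FPKM (SD, n = 3) and 0.631 ± 0.364 FPKM (SD, n = 3), a log2 fold change of 0.78 that was 0.32 without E15.5 replicate 1.

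Timp2 led the inhibitors, at 91.2, 91.7 and 92.1 FPKM at E18.5 and 48.4, 70.9 and 84.1 FPKM at E15.5 (log2 fold change 0.47, SE 0.21, adjusted p = 0.440). Timp1 was at 21.8, 14.6 and 19.7 FPKM at E18.5 and at 26.7, 27.4 and 24.8 FPKM at E15.5 (log2 fold change -0.51, SE 0.17, adjusted p = 0.307). For these genes the days did not overlap, but the differences were under the criterion. Timp3 was at 20.2, 20.1 and 20.1 FPKM against 13.1, 17.1 and 18.1 FPKM, also without overlap and under the criterion (log2 fold change 0.33, SE 0.15). Timp4 was at 0.0950, 0.0986 and 0.0808 FPKM against 0.156, 0.162 and 0.0605 FPKM (log2 fold change -0.21). The Timp sum divided by the Mmp sum was 0.476 to 0.584 at E18.5 and 0.776 to 0.993 at E15.5, without overlap. No test was made of the ratio. The Mmp sum behind it was 226 to 278 FPKM at E18.5 and 89.0 to 164 FPKM at E15.5.

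Leaving out E15.5 replicate 1 left 7 DE members at the labor stage, 5 higher and 2 lower, against 5.02% of all rows. Mmp15 and Adam3 left the list. Mmp11 then had a log2 fold change of 2.65, Mmp7 of 2.10 and Adamts4 of 1.42, and no member passed the adjusted p.

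Across the stages, the study compared the genes that were DE in each. By the criterion, 2 members were DE in both stages, which is 2 of the 15 DE members of the implantation stage and 2 of the 9 of the labor stage. Over all 22056 row pairs tested in both stages, 1.09% met the criterion in both, and with only 2 members nothing is read from the count. Mmp11 was upregulated on both low P4 days. Mmp7 was DE in opposite directions, lower at E0.5 and higher at E18.5. At the implantation stage its groups overlapped, and it kept the criterion in only 2 of the 6 fits that left out a library. Of the 54 members tested in both stages, 26 had higher values on the low P4 day in both, 12 had lower values in both, and 16 differed in sign (11 higher at E0.5 and lower at E18.5, 5 the reverse). The 12 include both Adamts9 and the row A730049H05Rik;Adamts9, whose labor partner A730049H05Rik carries no member name. Over all row pairs 24.3% were higher in both, 30.7% lower in both and 44.9% of opposite sign. Spearman's rho of the log2 fold changes was 0.42 across these 54 members and 0.17 across all row pairs. It is given as a description, since genes of a library share its depth and tissue makeup.

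**Figure D3:**
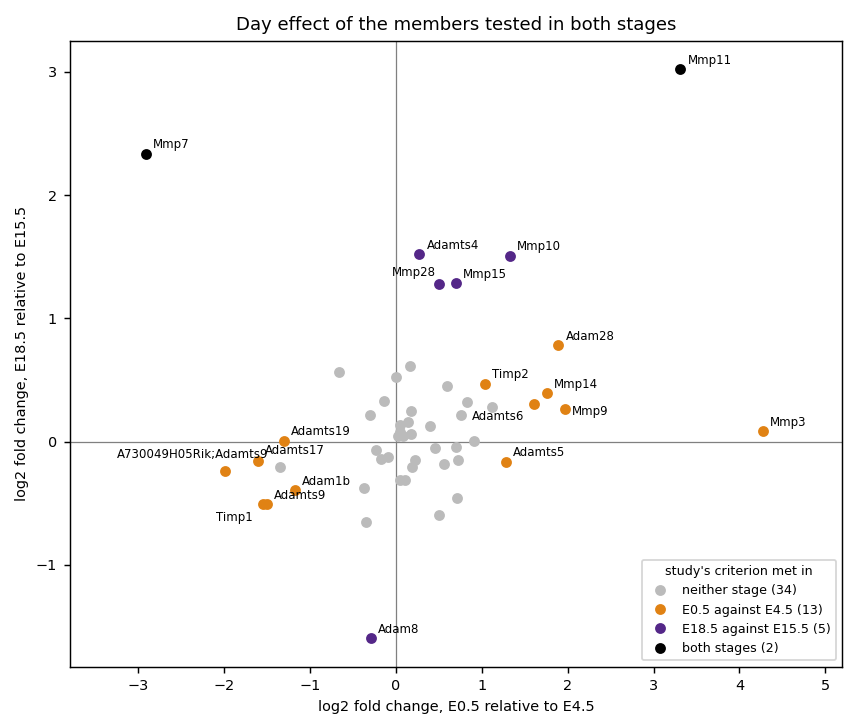
Log2 fold change of E18.5 relative to E15.5 (vertical) against that of E0.5 relative to E4.5 (horizontal) for the 54 members tested in both stages, both from limma on log2(FPKM + 0.1). The row A730049H05Rik;Adamts9 takes its labor value from the row named A730049H05Rik alone. Colours show in which stage a member met the study's criterion (edgeR for E0.5 against E4.5, limma for E18.5 against E15.5). Mmp11 stands alone at the upper right, Mmp7 at the upper left and Mmp3 at the far right near a labor value of 0.083.

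The difference between the stages was tested itself in a fit over all 12 libraries, with 59 member pairs. The adjusted p passed 0.05 for 2 of them, against 2.52% of all row pairs, and the unadjusted p for 16, against 17.6%. Mmp3 was one, with a difference of 4.19 between its log2 fold changes (SE 0.83, adjusted p = 0.0268), since it was higher at E0.5 and near equal on the labor days. With a pseudocount of 0.01 it was 5.53 and did not pass (adjusted p = 0.103), and Mmp3 was at 0 FPKM in 1 E4.5 library. The plus-strand row A730049H05Rik;Adamts9 was the other (difference -1.75, SE 0.38, adjusted p = 0.0376). In the labor table its partner carried the name A730049H05Rik alone. For Mmp11 the difference was 0.29 (SE 0.66, adjusted p = 0.863), which does not show that its effects are alike in the stages. For Mmp7 it was -5.25 (SE 1.34, adjusted p = 0.0645), and -6.35 (adjusted p = 0.00881) without E4.5 replicate 3, when 8 members passed, against 5.41% of all row pairs. Mmp14 had a difference of 1.36 (SE 0.35, adjusted p = 0.0641), which was 1.70 (adjusted p = 0.00311) without E15.5 replicate 1.

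Taking Mmp11 as the reference, the members with the nearest pair of log2 fold changes were Mmp10 (distance 2.50), Adam28 (2.65), Mmp14 (3.05), Mmp9 (3.07) and Mmp3 (3.09). The distance is Euclidean over the 2 log2 fold changes, and it shows mainly how far Mmp11 stood from all other members. Mmp10, the nearest, met the criterion only at the labor stage, and Adam28, Mmp14, Mmp9 and Mmp3 only at the implantation stage.

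A cluster of 10 neighbouring Mmp members lies on chromosome 9 between 7272514 and 7715109 (GRCm38), within 443 kb. Their order is Mmp13, Mmp12, Mmp1b, Mmp3, Mmp1a, Mmp10, Mmp8, Mmp27, Mmp20 and Mmp7, and it holds the collagenases, the stromelysins other than Mmp11, and the matrilysin. The direction of the day difference varied along the cluster. At the implantation stage Mmp3 was DE and higher at E0.5 while Mmp7 was DE and lower. At the labor stage Mmp7 and Mmp10 were DE and higher at E18.5, Mmp13 was DE and lower, and Mmp3 between them had a log2 fold change of 0.083. Mmp1a, Mmp1b and Mmp20 were listed at 0 in all 6 libraries of the first table, and the second table has no row for them.

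**Figure D4:**
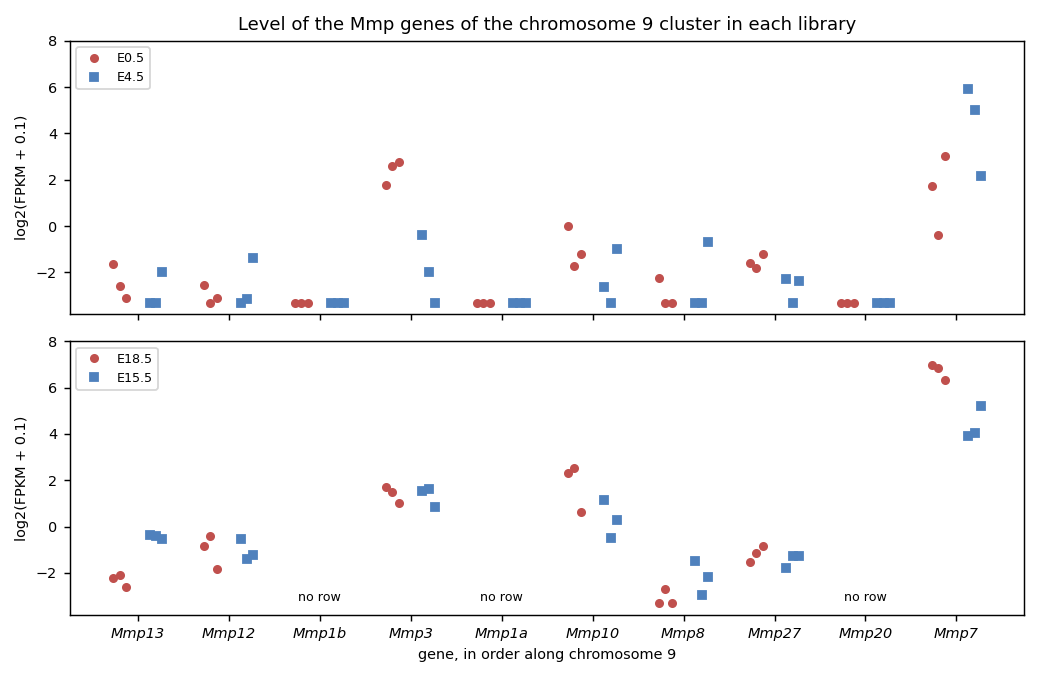
Level, as log2(FPKM + 0.1), of the 10 Mmp genes of the chromosome 9 cluster in the order of their positions, at the implantation stage (top) and the labor stage (bottom). Each point is a library, and the lowest possible position is a value of 0 FPKM. Mmp3 separated the days in the upper panel only, Mmp13 in the lower panel only, and Mmp7 reached 126 FPKM at E18.5.

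Partner genes of the pathway were counted from a list of 31, covering activators, plasmin system genes, other inhibitors and cofactors of the Adam proteases. At the implantation stage 30 rows of it were tested, and 6 were DE and higher and 3 DE and lower at E0.5, and 4 of them passed 0.05 after adjustment. The criterion was met by 12.2% of the whole table and the adjusted threshold by 1.22%. Without E4.5 replicate 3 the counts were 7, 3 and 8, when these shares were 14.4% and 6.28%. Tspan33, a tetraspanin of the group that guides Adam10, was at 3.25, 3.61 and 4.16 FPKM at E0.5 and at 1.11, 1.27 and 1.01 FPKM at E4.5 (log2 fold change 1.71, adjusted p = 0.0245), whereas Adam10 itself was not DE. Adamtsl3, an Adamts-like protein without protease activity, had a log2 fold change of 2.50 (adjusted p = 0.0248). Papln, a matrix protein with the ancillary domains of the Adamts family, had 1.57 (adjusted p = 0.0478). Serpine2 (protease nexin, an inhibitor of serine proteases) was lower at E0.5, at 1.56, 1.46 and 0.783 FPKM at E0.5 and at 9.96, 7.42 and 19.5 FPKM at E4.5 (-3.25, adjusted p = 0.0321, and -2.80 without E4.5 replicate 3). Pcsk5, a proprotein convertase that removes the prodomain of secreted precursors, was at 1.09, 1.39 and 0.896 FPKM at E0.5 and at 13.2, 11.5 and 3.10 FPKM at E4.5 (-3.05, adjusted p = 0.0608), and without E4.5 replicate 3 it passed the adjusted p (-3.47, adjusted p = 0.00127). Furin, which activates Mmp11 and Mmp14 inside the cell, was not DE (0.51).

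At the labor stage 31 rows of the list were tested, and 1 was DE and higher and 1 DE and lower at E18.5, with none past the adjusted p in limma. The criterion was met by 6.05% of all rows, so this count was near the background. Tspan33 was again the higher, at 3.25, 2.85 and 2.40 FPKM at E18.5 and 0.859, 1.13 and 2.0 FPKM at E15.5 (log2 fold change 1.11, adjusted p = 0.236). Its log2 fold change was 0.86, under the criterion, without E15.5 replicate 1. A2m, the plasma protease inhibitor alpha-2-macroglobulin, was at 30.4, 37.5 and 45.3 FPKM at E18.5 and at 622, 216 and 118 FPKM at E15.5 (-2.75, adjusted p = 0.156), with the highest value in E15.5 replicate 1, and without it the log2 fold change was -2.10. Plg (plasminogen) and Serpinf2 (its antiplasmin) then met the criterion as well, lower at E18.5, although both were under 1 FPKM in every library. At E15.5 Plg was at 0, 0.228 and 0.646 FPKM and Serpinf2 at 0.0345, 0.348 and 0.970 FPKM, in the order of the yolk sac sums of these libraries, whose part was not tested. The membrane inhibitor Reck and the inducer Bsg (basigin, or EMMPRIN) were not DE at either stage.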

How the data were processed

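Uterine RNA-seq of 12 ICR mice was used, 3 mice per day, grouped by the labels. The methods name Cutadapt, Bowtie2, Tophat2, StringTie and Ballgown, while the submitters' processing notes list Bowtie 0.12.2, HISAT2 2.0 and StringTie 1.3.0, with the builds mm8 and mm10. In GRCm38, each of the 81 member rows of the first table lies over its RefSeq namesake. The authors deposited FPKM values per gene for each stage, made separately, and whole-number counts for the implantation stage. How reads were counted, and whether strand was used, is not given in the sources used here. The labels describe poly(A) selection and the methods ribosomal RNA depletion. Values of 0.0001 FPKM in the first table (168941 values) were set back to 0. Unnamed rows took 1.02% to 1.86% of a library's counts.

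E0.5 against E4.5 was tested with edgeR 4.0.16 (TMM, quasi-likelihood F-test) on the counts, and E18.5 against E15.5 with limma 3.58.1 (trend) on log2(FPKM + 0.1), which understates changes of low genes. Fits used all rows averaging 0.1 FPKM or more (59732 and 30928), in R 4.3.3. The SE of an edgeR fold change is its size divided by the square root of F. The stages were compared with limma over 12 libraries, on row pairs that share Ensembl transcripts. Adjusted p-values are Benjamini-Hochberg over all rows. A further 94 and 26 rows carry a member's name without an Ensembl transcript and were not members. Of these, 10 were DE and higher and 10 DE and lower at E0.5 (12.2% of all rows met the criterion), and 1 was DE and higher at E18.5 (6.05% of all rows).

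Named with every library's value were Mmp11, the Timp genes and members of at least 1 FPKM on average that met the criterion. Named with group means were the 3 highest members per family and stage, members whose day effect differed between stages, and the 5 nearest to Mmp11. Adam28 and the partner genes are given by library though the rule did not ask for it, and Mmp13, Mmp15 at E0.5 and the cluster genes were named after their values were seen. The members, lists and tests were chosen with earlier results of these data known. The tests were run on simulated data first. Alternatives were DESeq2 1.42.0, its size factors, limma at the first stage, other filters and pseudocounts, quantile normalization, a replicate block, and leaving out each library. Leaving out E4.5 replicate 3 or E15.5 replicate 1 for the partner genes was chosen after seeing the data. No value column was left unused. The labels give no batch. Scripts used Python 3.11.15, pandas 2.3.3, NumPy 2.4.6 and matplotlib 3.10.9.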

Additional observations from a re-analysis of the deposited data

Results flagged for a closer look

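The effect of the day differed between the stages for 2 members in a direct test of the difference (limma, adjusted over all row pairs), out of 59 member pairs and against 2.52% of all row pairs, a share near the background. Mmp3 had a difference of 4.19 (adjusted p = 0.0268), from a log2 fold change of 4.27 for E0.5 against E4.5 and 0.083 for E18.5 against E15.5 on log2(FPKM + 0.1). Its difference passed the adjusted p in 5 of the 12 fits that left out a library, and ranged from 3.47 to 4.94. It depended on the pseudocount, at 5.53 (adjusted p = 0.103) with 0.01 and 2.25 (adjusted p = 0.0117) with 1, and was not past the adjusted p with a replicate block (adjusted p = 0.102). The row A730049H05Rik;Adamts9, whose labor partner was named A730049H05Rik alone, had a difference of -1.75 (adjusted p = 0.0376), from -1.99 and -0.24. It passed in 1 of the 12 fits, the one without E4.5 replicate 3, and ranged from -1.96 to -1.50.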

How the results depend on the processing

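Members past the adjusted p at the implantation stage numbered 5 in the main test, 12 with DESeq2 (against 9.99% of all rows), 0 with a replicate block (0% of all rows) and 0 to 10 with a library left out (10 without E4.5 replicate 3, 0 without any of the other 5). All 5 were among the 12 of DESeq2. The count by the study's criterion was 15, and 12 to 16 under the other settings and 10 to 16 with a library left out. With limma on log2(FPKM + 0.1) it was 12, 8 higher and 4 lower, and all 12 were among the 15. At the labor stage the criterion gave 9 members, 5 with a pseudocount of 1, all among the 9, and 7 to 9 with a library left out, and limma gave 0 past the adjusted p under every setting tried. Members whose day effect differed between the stages numbered 2, 3 with a pseudocount of 1, both of the 2 among them, 1 with a pseudocount of 0.01, 0 with a replicate block and 0 to 8 with a library left out. Leaving out any library but E4.5 replicate 3 (8) gave 0 or 1. The cause of these shifts was not tested. Same-numbered mice did not deviate together (correlations of -0.063 to 0.018 and -0.049 to 0.017), so the numbers were not taken as pairs.

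Of 50 results for named members, 41 kept their direction under every setting. The others were near 0 and not DE. With a library left out, the log2 fold change at the implantation stage ran from -0.42 to 0.26 for Adamts1, from -0.16 to 0.44 for Adamts10 and from -0.46 to 0.097 for Timp3. At the labor stage it ran from -0.035 to 0.10 for Adam17 (-0.011 after quantile normalization), from -0.12 to 0.17 for Adamts1, from -0.20 to 0.036 for Adamts2, from -0.17 to 0.27 for Mmp3 and from -0.13 to 0.57 for Mmp9. The difference between the stages ran from -0.17 to 0.71 for Mmp11. Mmp7, Timp1 and Adamts17 at the implantation stage lost the criterion in 4 of 6 such fits, Adamts5 and Adamts19 in 3, and Mmp3 and Timp2 in 1, while Mmp11, Mmp14, Mmp9, Adam28, Adamts6, Adamts9 and the plus-strand row in it kept it in all 6. Counts are not given for the labor stage, so no counting error could be given for low values there.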
